A study of Homo sapiens with 12 samples.

Results

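Expression of 10 genes of the extracellular matrix, of cell adhesion and of the mesenchymal state was followed in HT29 cells during exposure to methotrexate. The genes were TNC, FN1, MCAM, EMP1, EMP3, VIM, ACTA2, TAGLN, CDH1 and ZEB1, 10 of the 18377 genes measured, and each was read by 1 probe set that named no other gene. They were chosen in part from earlier results of the same 12 arrays, among them the values of TNC and FN1 at 8 h, and which other differences from control entered the choice is not recorded. The differences and calls below therefore describe these arrays, and their p-values are no independent evidence for the choice of genes.

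HT29 is an established human colon adenocarcinoma line, and methotrexate is an antifolate that limits the making of thymidylate and purines. The groups were untreated control cells, taken as 0 h, and cells given 70 nM methotrexate for 8 h, 24 h or 48 h, with 3 arrays described as biological replicates in each. All groups were the same line in serum-containing F12 medium, and no untreated cells at 8, 24 or 48 h were used here, so that methotrexate and time in culture cannot be told apart. The values are given as log2 ratios, with the median of the 3 control arrays at 0. Absolute levels were lost in that step, so whether a gene was above background, and how much epithelial or mesenchymal marker RNA the cells held, could not be seen. In RNA from a whole culture, fewer cells expressing a gene and less RNA per cell cannot be told apart.

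Epithelial cells are held together by E-cadherin, encoded by CDH1, whose gene is repressed by transcription factors such as ZEB1. In a full epithelial-mesenchymal transition E-cadherin is lost, the filament protein vimentin and contractile proteins of smooth muscle appear, and cells lay down fibronectin and tenascin. Carcinoma cells often change only some of these genes, and the genes also answer to other signals, among them growth factors, stress and cell shape.

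The spread between replicates was small, with a median SD per gene of 0.064 in the control group, 0.065 at 8 h, 0.066 at 24 h and 0.087 at 48 h. Replicate 3 at 48 h stood apart from the other arrays of its group, with a root mean square difference over all genes of 0.184 and 0.208 from its group mates, where the other 10 pairs of replicates had 0.094 to 0.143. Without that array 7 of the 10 genes again passed the test at 48 h against control, but TAGLN was lost (adjusted p = 0.058) and ZEB1 gained (adjusted p = 0.0179).

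At 8 h, TNC, EMP1, EMP3 and FN1 were higher than in control cells and none of the 10 genes was lower. These 4 calls were made with limma at an adjusted p under 0.05 over all genes, a threshold passed by 24.2% of the genes measured in that comparison, 12.1% higher and 12% lower. At 24 h, 7 of the 10 rose and none fell, MCAM, ACTA2 and TAGLN having joined the first 4, where 16.7% of all genes were called, 8.69% higher and 8.02% lower. At 48 h, 6 rose and TAGLN fell, where 25.3% of all genes were called, 13% higher and 12.3% lower. Between times, 4 of the 10 genes were called at 24 h against 8 h (19.4% of all genes), 6 at 48 h against 24 h (10.1%) and 8 at 48 h against 8 h (29.7%). The median log2 difference of the 10 genes was 0.15 at 8 h, 0.43 at 24 h and 0.55 at 48 h, beside 0.02, 0.02 and 0.01 over all genes. CDH1, ZEB1 and VIM passed the threshold against control at none of the 3 times. Over the 4 groups together, limma's moderated F test called 8 of the 10 genes, beside 38.8% of all genes, and left CDH1 (adjusted p = 0.156) and ZEB1 (adjusted p = 0.105) uncalled; with array weights it called all 10. The group means were highest at 8 h for TNC, nearly level at the 3 times for EMP1, and highest at 48 h for MCAM, EMP3, FN1 and ACTA2, with small differences for VIM, TAGLN, CDH1 and ZEB1.

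**Figure D1:**
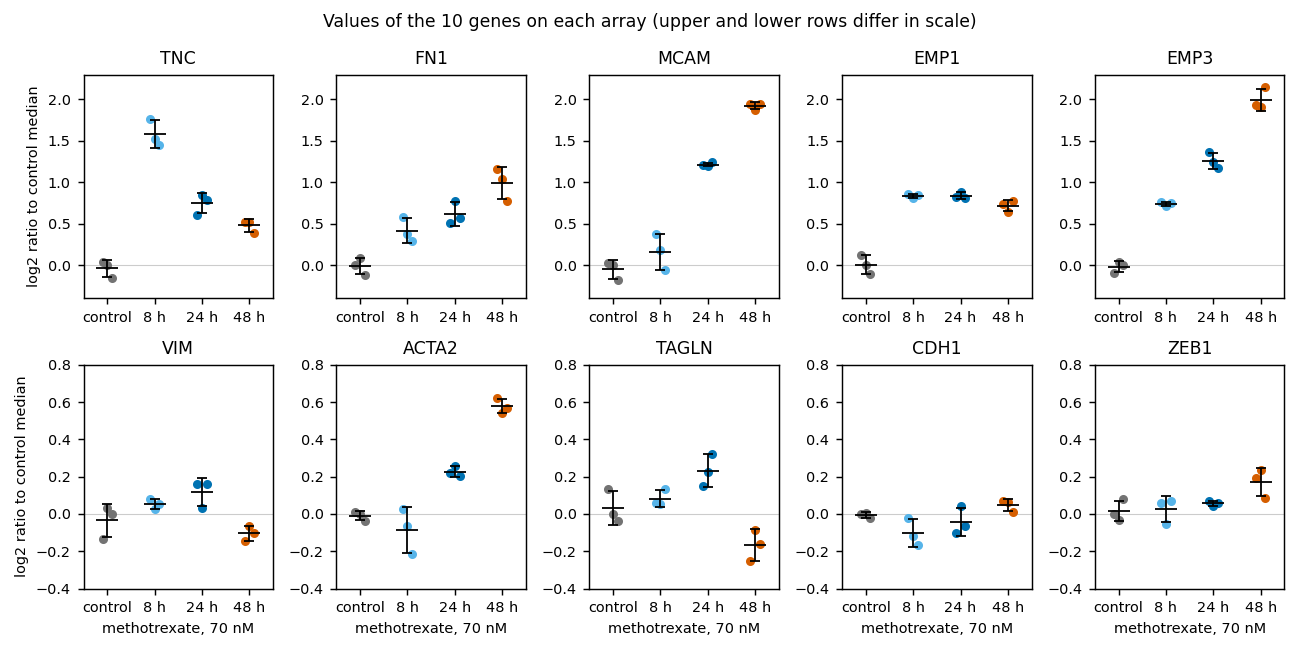
Log2 ratio to the control median (vertical axis) of the 10 genes on each of the 12 arrays, by time with 70 nM methotrexate, with points for arrays and bars for the group mean ± SD (n = 3); the upper and lower rows have different scales. TNC peaked at 8 h with values of 1.45 to 1.77, MCAM and EMP3 climbed to 1.87 to 1.95 and 1.91 to 2.15 at 48 h, and CDH1 stayed between -0.17 and 0.07 on every array.

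The start regions of the genes are shown for FN1, MCAM and EMP1, because they were the windows that held a CRE or a match to an AP-1 pattern, as described next. The sequences are the 250 bases before the transcription start, 5′ to 3′ on the gene's strand, from RefSeq on GRCh38.p14. Capitals mark the cAMP response element (CRE) TGACGTCA or the loose AP-1 pattern TGANTCA, in which N is any base. The FN1 window lies on the minus strand at chr2:215436069-215436318, the MCAM window on the minus strand at chr11:119317131-119317380 and the EMP1 window on the plus strand at chr12:13196476-13196725.
FN1: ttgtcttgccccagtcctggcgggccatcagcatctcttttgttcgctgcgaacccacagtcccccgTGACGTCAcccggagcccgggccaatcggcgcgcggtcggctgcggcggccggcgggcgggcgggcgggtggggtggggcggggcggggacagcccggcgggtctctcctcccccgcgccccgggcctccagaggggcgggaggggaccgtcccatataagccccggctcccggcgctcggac
MCAM: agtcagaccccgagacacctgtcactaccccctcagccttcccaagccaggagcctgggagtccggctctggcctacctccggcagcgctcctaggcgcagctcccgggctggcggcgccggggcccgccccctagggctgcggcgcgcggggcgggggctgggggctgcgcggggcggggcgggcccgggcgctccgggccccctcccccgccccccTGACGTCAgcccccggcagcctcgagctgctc
EMP1: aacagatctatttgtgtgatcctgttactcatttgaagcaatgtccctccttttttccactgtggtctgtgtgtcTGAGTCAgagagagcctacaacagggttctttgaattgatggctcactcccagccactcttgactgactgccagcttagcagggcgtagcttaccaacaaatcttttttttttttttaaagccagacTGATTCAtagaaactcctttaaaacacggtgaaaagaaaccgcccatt
The CRE began 183 bases before the start in FN1 and 32 bases before it in MCAM. The 2 matches of EMP1 to TGANTCA began 175 and 48 bases before the start, the first as TGAGTCA and the second as TGATTCA. In the RefSeq table of 35116 windows, each of 250 bases before and 50 after a start, 1.85% held a CRE and 7.71% a match to TGANTCA on either strand. Among the 16 windows found for these genes, 2 held a CRE and 1 a match to TGANTCA.

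The table held windows for 8 of the 10 genes, 16 in all since EMP3 and ACTA2 have 2 starts each and ZEB1 has 7; CDH1 and TAGLN were not matched. All 11 motifs searched were read on both strands, and matches were allowed to overlap. Of these 16 windows, 12 held the GC box GGGCGG, at least 1 in each of the 8 genes, beside 45.0% of all windows, and several copies in FN1, MCAM and ZEB1 overlap each other. CAGGTG, the E-box that ZEB1 can bind, was in 3 of the 16, of MCAM and of ZEB1 itself, beside 20.6% of all windows. The CArG box, bound by SRF in smooth muscle genes, was searched in its strict form with no mismatch, which 0 of the 16 and 1.29% of all windows held; forms that differ from it were not searched, so this says nothing of CArG boxes in ACTA2. The SMAD element CAGACA was in 4 of the 16, of TNC, EMP1, EMP3 and ZEB1 (16.9% of all windows), and in EMP1 it overlaps a match to TGANTCA. The TATA box matches in EMP3, on opposite strands, overlap too. The CCAAT box was in 2 of the 16, of FN1 and EMP3 (34.6%), the TATA box TATAAA in 1, of EMP3 (11.5%), the TEAD element GGAATG in 2, of ACTA2 and ZEB1 (14.0%), the NF-kB element in 2, of MCAM and ZEB1 (4.6%), and the ETS element CCGGAAGT in 0 (4.14%).

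TNC, the gene of tenascin-C, encodes a large matrix glycoprotein that loosens cell attachment and is made in wounds and tumours. Its log2 ratio was 0.04, 0.00 and -0.16 in control cells, 1.77, 1.52 and 1.45 at 8 h, 0.61, 0.85 and 0.78 at 24 h, and 0.53, 0.52 and 0.39 at 48 h. Each treated array lay above each control array, and the 8 h arrays lay above all others. TNC was 3.07-fold higher at 8 h than in control cells (log2 difference 1.62, SE 0.09, n = 3 per group) and had rank 1 of 18377 by its difference. It was 1.72-fold higher at 24 h (0.78, SE 0.09; rank 79) and 1.43-fold higher at 48 h (0.52, SE 0.09; rank 461). The decline was measured directly between times: TNC was 1.78-fold lower at 24 h than at 8 h (-0.83, SE 0.09), with rank 50 from the lowest. From 24 h to 48 h the difference was -0.27 (SE 0.09, adjusted p = 0.0782), which passed the threshold without replicate 1 at 8 h (0.0379) and with array weights (0.0264).

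FN1 encodes fibronectin, the matrix protein that integrins bind and on which other matrix fibres assemble. It had log2 ratios of 0.00, 0.08 and -0.11 in control cells, 0.58, 0.38 and 0.29 at 8 h, 0.50, 0.78 and 0.56 at 24 h, and 1.16, 1.04 and 0.77 at 48 h. All treated arrays lay above all control arrays, while neighbouring times overlapped. FN1 was 1.35-fold higher at 8 h (0.43, SE 0.10), 1.54-fold higher at 24 h (0.63, SE 0.10) and 2.0-fold higher at 48 h than in control cells (1.0, SE 0.10). It was also higher at 48 h than at 8 h (0.57, SE 0.10). The step from 8 h to 24 h was 0.20 (SE 0.10, adjusted p = 0.252). The step from 24 h to 48 h was 0.38 (SE 0.10, adjusted p = 0.0382), a call lost in 7 of 17 alternatives (adjusted p = 0.0544 to 0.151), among them without replicate 2 at 8 h, replicate 1 or 3 at 24 h, replicate 1 or 2 at 48 h or control replicate 1. FN1 and TNC thus ran opposite ways after 8 h, FN1 higher and TNC lower at 48 h than at 8 h.

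MCAM encodes an immunoglobulin-type adhesion molecule of the cell surface, first known from melanoma and common on endothelium. It had log2 ratios of 0.02, 0.00 and -0.18 in control cells, 0.37, 0.18 and -0.06 at 8 h, 1.21, 1.20 and 1.24 at 24 h, and 1.95, 1.87 and 1.95 at 48 h. The 8 h arrays overlapped the control arrays, whereas the 24 h and 48 h arrays formed tight groups well above both. At 8 h the difference from control was 0.21 (SE 0.09, adjusted p = 0.108), and it was 0.33 (adjusted p = 0.00833) without replicate 3 at 8 h. MCAM was 2.40-fold higher at 24 h (1.27, SE 0.09; rank 16) and 3.93-fold higher at 48 h than in control cells (1.97, SE 0.09; rank 6). It was 2.07-fold higher at 24 h than at 8 h (1.05, SE 0.09) and 1.63-fold higher at 48 h than at 24 h (0.71, SE 0.09).

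EMP1 and EMP3 encode small membrane proteins with 4 membrane spans, of the same family as the myelin protein PMP22, linked to growth control and cell contacts. EMP1 had log2 ratios of 0.12, 0.00 and -0.11 in control cells, 0.85, 0.81 and 0.85 at 8 h, 0.82, 0.89 and 0.81 at 24 h, and 0.74, 0.64 and 0.77 at 48 h. The treated arrays formed a plateau above the control arrays, with the 8 h and 24 h arrays intermixed. EMP1 was 1.78-fold higher at 8 h (0.83, SE 0.06; rank 51), 1.78-fold higher at 24 h (0.83, SE 0.06) and 1.64-fold higher at 48 h than in control cells (0.71, SE 0.06). The difference between 24 h and 8 h was 0.00 (95% interval -0.12 to 0.13, adjusted p = 0.983). Between 48 h and 24 h it was -0.12 (SE 0.06, adjusted p = 0.244), and array weights gave adjusted p = 0.00608.

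EMP3 had log2 ratios of -0.09, 0.04 and 0.00 in control cells, 0.76, 0.71 and 0.75 at 8 h, 1.36, 1.24 and 1.17 at 24 h, and 1.93, 1.91 and 2.15 at 48 h. No 2 of the 4 groups overlapped. EMP3 was 1.69-fold higher at 8 h (0.76, SE 0.07; rank 76), 2.42-fold higher at 24 h (1.27, SE 0.07; rank 15) and 4.04-fold higher at 48 h than in control cells (2.02, SE 0.07; rank 4). Each step was called, by 0.51 (SE 0.07) from 8 h to 24 h and by 0.74 (SE 0.07) from 24 h to 48 h. EMP2, the remaining EMP gene, differed from control by 0.16 at 8 h (SE 0.04, adjusted p = 0.0219), by 0.06 at 24 h (adjusted p = 0.477) and by 0.05 at 48 h (adjusted p = 0.478).

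**Figure D2:**
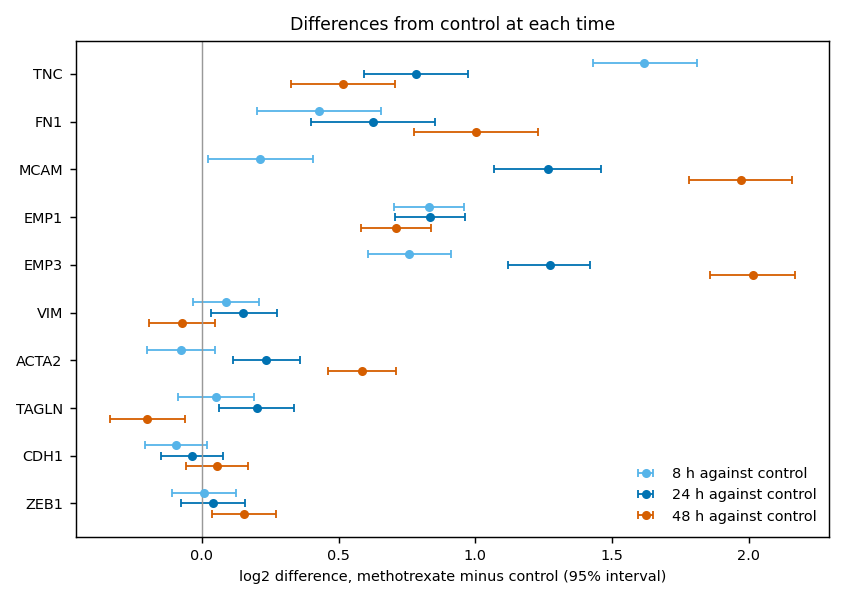
Log2 difference between methotrexate-treated and control cells (horizontal axis) for the 10 genes at 8, 24 and 48 h, with limma's 95% interval. The points of TNC move towards 0 with time, those of MCAM and EMP3 move away from it to 1.97 and 2.02, and all 3 intervals of CDH1 include 0.

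ACTA2, VIM and TAGLN encode proteins of the cytoskeleton. ACTA2 encodes smooth muscle actin, a mark of myofibroblasts, and had log2 ratios of 0.01, 0.00 and -0.04 in control cells, 0.03, -0.07 and -0.22 at 8 h, 0.22, 0.26 and 0.20 at 24 h, and 0.62, 0.54 and 0.57 at 48 h. The 8 h arrays overlapped the control arrays, and the 24 h and 48 h arrays lay above both without overlap. ACTA2 differed from control by -0.08 at 8 h (SE 0.06, adjusted p = 0.431), and was 1.18-fold higher at 24 h (0.24, SE 0.06) and 1.5-fold higher at 48 h (0.59, SE 0.06; rank 347). It rose in both steps, by 0.31 (SE 0.06) at 24 h against 8 h and by 0.35 (SE 0.06) at 48 h against 24 h.

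TAGLN encodes transgelin, an actin-binding protein that, like smooth muscle actin, is made in smooth muscle and myofibroblasts. Its log2 ratio was 0.13, 0.00 and -0.04 in control cells, 0.06, 0.05 and 0.13 at 8 h, 0.15, 0.22 and 0.32 at 24 h, and -0.25, -0.09 and -0.16 at 48 h. The 48 h arrays were the lowest 3 of the 12 and the 24 h arrays the highest 3. Against control TAGLN was higher by 0.20 at 24 h (SE 0.06, adjusted p = 0.0484) and lower at 48 h (-0.20, SE 0.06, adjusted p = 0.0353). The first call was lost in 11 of 17 alternatives (adjusted p = 0.0508 to 0.204), among them without any 1 replicate at 8 h and without replicate 2 or 3 of the 24 h or of the control group. The second was lost in 6 of 17 alternatives (adjusted p = 0.0522 to 0.156), among them without replicate 1 or 3 at 48 h or control replicate 1 or 2. The fall from 24 h to 48 h was larger (-0.40, SE 0.06; rank 178 from the lowest) and was called under all 17 alternatives. Over the same interval ACTA2 rose, so the 2 smooth muscle genes of the list moved in opposite directions after 24 h.

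VIM encodes vimentin, the main intermediate filament of mesenchymal cells. Its log2 ratio was -0.13, 0.03 and 0.00 in control cells, 0.08, 0.03 and 0.06 at 8 h, 0.16, 0.03 and 0.16 at 24 h, and -0.15, -0.07 and -0.10 at 48 h. The treated arrays overlapped the control arrays at each time. VIM differed from control by 0.09 at 8 h (SE 0.06, adjusted p = 0.328), by 0.15 at 24 h (adjusted p = 0.0855) and by -0.07 at 48 h (adjusted p = 0.441). The 24 h difference passed the threshold without replicate 2 at 24 h (0.0379) and with array weights (0.0219). VIM fell between 24 h and 48 h (-0.22, SE 0.06, adjusted p = 0.0222), a call lost in 4 of 17 alternatives (adjusted p = 0.0682 to 0.093), those without replicate 1 or 3 at 24 h or replicate 1 at 48 h and the fit of these 2 groups alone. VIM at 48 h against 8 h (-0.16, SE 0.06, adjusted p = 0.0471) was lost in 13 of 17 alternatives (adjusted p = 0.051 to 0.142), among them without any 1 replicate at 8 h or 48 h, replicate 1 or 3 at 24 h or control replicate 2 or 3.

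CDH1 encodes E-cadherin, the adhesion protein of epithelial junctions. Its log2 ratio was 0.00, 0.00 and -0.02 in control cells, -0.02, -0.12 and -0.17 at 8 h, -0.10, 0.04 and -0.07 at 24 h, and 0.07, 0.07 and 0.01 at 48 h. The 3 arrays at 48 h lay just above the control arrays, and the 8 h and 24 h arrays overlapped them. CDH1 differed from control by -0.10 at 8 h (95% interval -0.21 to 0.02, adjusted p = 0.24), by -0.04 at 24 h (-0.15 to 0.08, adjusted p = 0.748) and by 0.05 at 48 h (-0.06 to 0.17, adjusted p = 0.55). Array weights took the 8 h difference past the threshold (-0.12, adjusted p = 0.0364). CDH1 was higher at 48 h than at 8 h by 0.15 (SE 0.05, adjusted p = 0.0453), a call lost in 10 of 17 alternatives (adjusted p = 0.05 to 0.175), among them without replicate 2 or 3 at 8 h, replicate 1 or 3 at 24 h, replicate 1 or 2 at 48 h or any 1 control replicate.

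ZEB1 encodes a zinc finger repressor of CDH1 and other epithelial genes. Its log2 ratio was 0.00, -0.03 and 0.08 in control cells, 0.06, -0.06 and 0.07 at 8 h, 0.07, 0.04 and 0.06 at 24 h, and 0.19, 0.23 and 0.09 at 48 h. The 48 h arrays lay just above all others, and the remaining groups overlapped. ZEB1 differed from control by 0.01 at 8 h (SE 0.05, adjusted p = 0.945), by 0.04 at 24 h (adjusted p = 0.709) and by 0.15 at 48 h (95% interval 0.04 to 0.27, adjusted p = 0.0518). The 48 h difference passed the threshold without replicate 3 at 48 h (0.20, adjusted p = 0.0179), without replicate 2 at 8 h or control replicate 3, and with array weights. Between 48 h and 8 h ZEB1 differed by 0.15 (SE 0.05, adjusted p = 0.0586). That difference passed the threshold without replicate 3 at 48 h (0.19, adjusted p = 0.018) and with array weights (0.22, adjusted p = 0.000292).

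At 48 h against control, the groups did not overlap for 8 of the 10 genes on the higher side and for 1 on the lower side, where 17.9% of all genes lay wholly above and 17.9% wholly below control. The 8 include CDH1 and ZEB1, which limma did not call at 48 h and whose gaps were narrow. The lowest 48 h value was 0.011 against a highest control value of 0.003 for CDH1, and 0.087 against 0.078 for ZEB1. At 24 h it was 7 on the higher side and 0 on the lower (17.8% and 15.2% of all genes), and at 8 h it was 4 and 0 (20.7% and 17.2%).

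**Figure D3:**
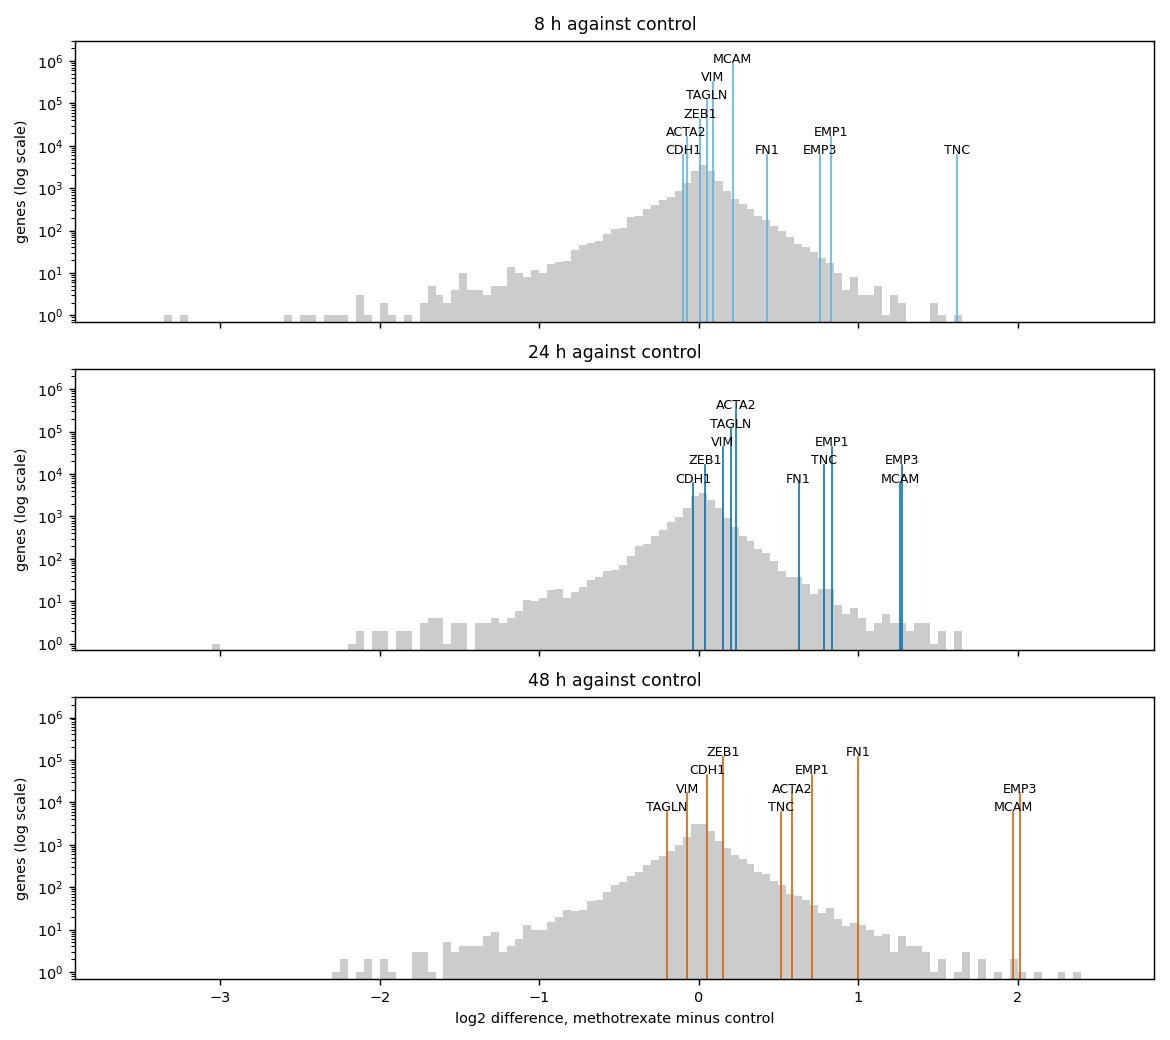
Number of genes (vertical axis, log scale) by log2 difference between methotrexate-treated and control cells (horizontal axis) at 8, 24 and 48 h, for all 18377 genes in grey, with a vertical line for each of the 10 genes, whose height only spaces the names. TNC lies at the right end at 8 h (1.62), and EMP3 (2.02) and MCAM (1.97) lie near it at 48 h, while VIM, CDH1 and ZEB1 stay near the centre.

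Within groups, some arrays ran high or low for several of the genes at once. At 8 h, replicate 1 was the highest and replicate 3 the lowest for TNC, FN1, MCAM, ACTA2 and CDH1, an order that 29.4% of all genes had. Control replicate 3 was the lowest control array for 7 of the 10 genes, beside 44.8% of all genes. Replicate 3 at 48 h was the lowest of its group for TNC, FN1, CDH1 and ZEB1 (36.4% of all genes) and the highest for MCAM, EMP1 and EMP3 (49.8% of all genes). The differences were also computed without each of these arrays, with array weights and with a replicate block, and the calls that changed are given with each gene or in the closing section.

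Over the 12 arrays, Pearson's r among MCAM, EMP3, FN1 and ACTA2 was 0.96 for MCAM and ACTA2, 0.95 for MCAM and EMP3, 0.93 for FN1 and EMP3, 0.90 for FN1 and MCAM, 0.86 for EMP3 and ACTA2 and 0.84 for FN1 and ACTA2. TNC correlated with EMP1 (r = 0.77) more than with EMP3 (0.17) or MCAM (-0.07), and VIM with TAGLN (0.72). These are descriptions over 12 arrays that share 4 groups, so most of the spread behind them lies between groups. Among all genes, EMP3 was most like AXL (r = 0.993), a receptor tyrosine kinase with log2 differences of 0.53, 0.95 and 1.62 at 8, 24 and 48 h. It was next most like PLAU, the urokinase protease (0.983), and the adhesion molecule ICAM2 (0.981). MCAM was most like APOBEC3B, a cytidine deaminase (0.993), LAPTM5, a lysosomal membrane protein (0.992), and NEDD9, a scaffold of adhesion signalling (0.991). LAPTM5 had differences of 0.41, 1.53 and 2.36. TNC was most like EIF2B1, a translation factor subunit (0.982), CTPS1, the CTP synthase (0.978), and the phosphatase UBASH3B (0.977), whose differences were 0.77, 0.35 and 0.27.

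Related genes were counted in 13 lists. The share of a list called in either direction was above that of all genes in 4 of 13 lists at 8 h, 6 at 24 h and 3 at 48 h, and at or below it in the others, where 24.2%, 16.7% and 25.3% of all genes were called. It was highest in the TGF-beta pathway at 8 h and 48 h, with 45.5% and 59.1%. Of the matrix list it was 9.09% at 8 h, 15.2% at 24 h and 15.2% at 48 h. Of 33 other matrix proteins and modifiers measured, 2 rose and 1 fell at 8 h, 5 rose and 0 fell at 24 h, and 4 rose and 1 fell at 48 h, with a list median of 0.02 at 48 h. CCN1, a matrix-associated signalling protein, was 1.91-fold higher at 48 h (0.93, SE 0.07), while its relative CCN2 fell (-0.53, SE 0.08). THBS1, thrombospondin 1, rose early, by 0.52 at 8 h (SE 0.07), and was higher by 0.24 at 24 h and 0.33 at 48 h. Of 12 receptors and adaptors for fibronectin and tenascin, 1 rose at 8 h, 3 at 24 h and 3 at 48 h, and 0 fell. ITGAV, the integrin alpha V chain, was 1.5-fold higher at 48 h (0.59, SE 0.08), and PXN, the focal adhesion adaptor paxillin, was higher by 0.35 (SE 0.05). ILK, an integrin-linked pseudokinase, rose by 0.27 at 24 h (SE 0.07) and differed by 0.05 at 48 h (adjusted p = 0.704).

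Of 11 other immunoglobulin-type and nectin adhesion molecules, 1 rose and 3 fell at 8 h, 0 were called at 24 h by limma (1 at an unadjusted p under 0.05), and 2 rose and 1 fell at 48 h. ICAM1, a leukocyte-binding adhesion molecule, was lower at 8 h (-0.51, SE 0.08) and 1.70-fold higher at 48 h (0.77, SE 0.08). BCAM, a laminin-binding relative of MCAM, did likewise (-0.32 at 8 h and 0.45 at 48 h, SE 0.06). NECTIN1 ran the other way, higher by 0.39 at 8 h (SE 0.08) and lower at 48 h (-0.27, adjusted p = 0.0298). In the PMP22 and EMP list, EMP2 at 8 h was the single call among 3 genes measured. Of 5 intermediate filament genes akin to VIM, 0 were called against control at any time by limma, and 0 had an unadjusted p under 0.05.

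Among 20 other contractile and SRF pathway genes, 2 rose at 8 h, 5 rose at 24 h, and 4 rose and 1 fell at 48 h, with a median of 0.03 at 48 h. CNN3, the non-muscle calponin, was 2.51-fold higher at 48 h (1.33, SE 0.11), and SMTN, smoothelin, 1.44-fold higher (0.53, SE 0.07). VCL, vinculin, was higher at all 3 times by 0.27 to 0.37. The gene that fell, SRF, encodes the transcription factor itself (-0.20 at 48 h, SE 0.06); it is outside the rule for named genes and was picked after its values were seen. Of 13 mesenchymal and fibroblast markers, 2 rose and 1 fell at 8 h, 3 rose at 24 h and 2 rose at 48 h, with a median of 0.05 at 48 h. AXL was 3.07-fold higher at 48 h (1.62, SE 0.06) and S100A4, a motility-linked calcium-binding protein, 1.42-fold higher (0.51, SE 0.07), whereas MSN, moesin, was higher by 0.32 at 8 h (SE 0.05) and differed by -0.01 at 48 h (adjusted p = 0.961).

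Of 21 factors of the epithelial-mesenchymal transition and their epithelial antagonists, 1 rose and 4 fell at 8 h, 5 rose and 2 fell at 24 h, and 5 rose and 4 fell at 48 h. At 48 h ELF3, ELF5, GRHL1, GRHL3 and SNAI1 rose, and ESRP2, KLF5, OVOL1 and OVOL2 fell. This names all genes called then, beyond the rule for named genes. At each of the 3 times SNAI1 was the only called gene counted here as a driver of the transition. The other called genes were counted as epithelial antagonists, a split that the list itself did not mark. The largest rise was in ELF5, an epithelial ETS factor, 2.59-fold at 24 h (1.37, SE 0.07) and 3.22-fold at 48 h (1.69, SE 0.07). GRHL3, a grainyhead factor of epithelial barriers, was higher by 0.62 at 48 h (SE 0.07). OVOL1, which represses ZEB1 in other systems, was lower at all 3 times, with -0.41 at 8 h, -0.36 at 24 h and -0.46 at 48 h (SE 0.07 for each). Outside the rule for named genes and picked after their values were seen, SNAI1, the Snail repressor of CDH1, rose by 0.46 at 48 h (SE 0.06), whereas ZEB2 differed by -0.01 (adjusted p = 0.891), SNAI2 by 0.12 (adjusted p = 0.152) and TWIST1 by -0.03 (adjusted p = 0.839).

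Of 16 cadherin-catenin and epithelial identity genes, 2 rose and 2 fell at 8 h, 1 rose at 24 h, and 2 rose and 1 fell at 48 h. CDH3, P-cadherin, was 1.45-fold higher at 48 h (0.54, SE 0.05). KRT19, a keratin of simple epithelia, was higher by 0.41 at 24 h (SE 0.08) and differed by 0.20 at 48 h (adjusted p = 0.0873). PKP3, a desmosomal plakophilin, was higher by 0.47 at 8 h (SE 0.10) and differed by 0.13 at 48 h (adjusted p = 0.41). Of 22 TGF-beta pathway genes, 4 rose and 6 fell at 8 h, 3 rose and 4 fell at 24 h, and 7 rose and 6 fell at 48 h. ID2, an inhibitor of differentiation, was lower at all 3 times (-0.70, -0.77 and -0.80, SE 0.07). ID1 was lower at 8 h (-0.28, SE 0.05) and at 48 h (-0.66, SE 0.05). SMAD3, a signal transducer, was 1.62-fold higher at 48 h (0.69, SE 0.05).

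Markers of other cell types were counted in the same way. Of 10 endothelial markers, 1 was called, TIE1 at 8 h (0.23, SE 0.08, adjusted p = 0.0483), and of 9 leukocyte markers 0 were called by limma at any time and 0 had an unadjusted p under 0.05. Of 9 colon epithelial markers, 1 rose and 1 fell at 8 h, 2 rose and 1 fell at 24 h, and 1 rose and 1 fell at 48 h. CEACAM5, a carcinoembryonic antigen, was higher by 0.79 at 24 h (SE 0.07) and differed by 0.15 at 48 h (adjusted p = 0.147). LGALS4, an intestinal galectin, was lower at all 3 times, with -0.64 at 8 h, -0.28 at 24 h and -0.37 at 48 h (SE 0.06 for each). KRT20, a keratin of differentiated gut epithelium, was higher by 0.51 at 48 h (SE 0.05). The lists overlap in CDH17 and EPCAM, which are counted in both epithelial lists.

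**Figure D4:**
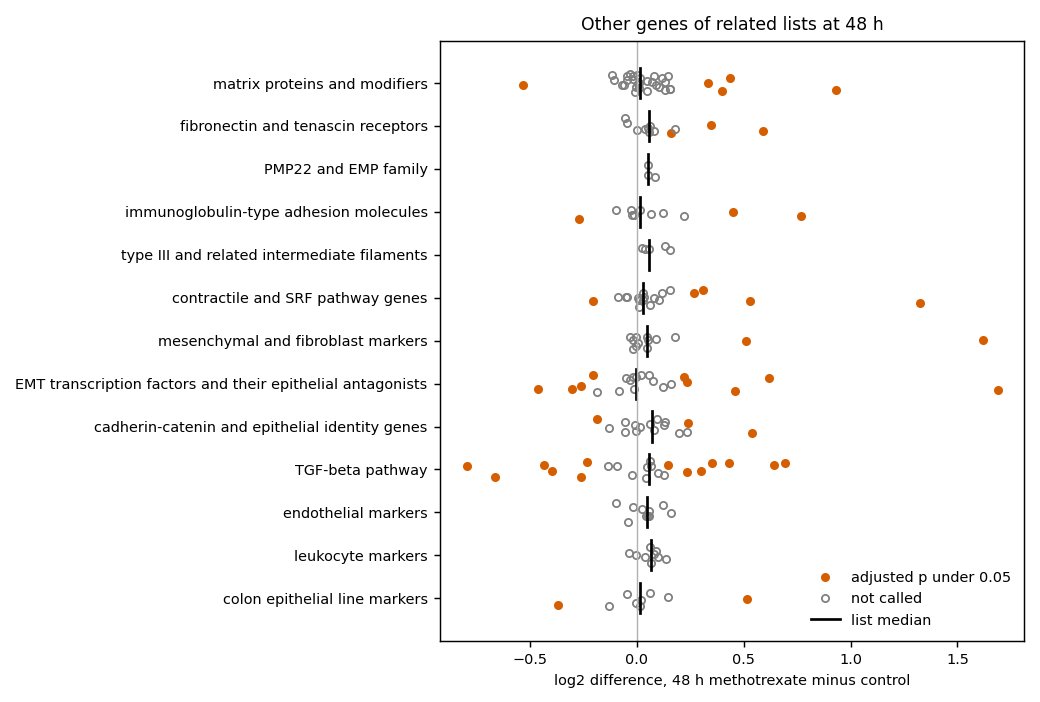
Log2 difference between 48 h methotrexate and control cells (horizontal axis) for each measured gene of 13 related lists (rows); filled points passed an adjusted p under 0.05, open points did not, and black bars are list medians. List medians lie close to 0, while AXL (1.62), ELF5 (1.69) and CNN3 (1.33) stand far to the right of theirs.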

How the data were processed

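Gene expression in 12 samples of HT29 cells was measured on Affymetrix human gene arrays. Per the submitters' processing notes, the authors used RMA, whose output is log2, and build hg19, neither with a version. In the deposited log2 table the control median is 0 in all 28869 probe sets, so values are ratios to it; no source used here states that centring or the log base. The number of arrays limits the precision, and signal over background was lost.

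Names came from the annotation of the array platform: 19310 probe sets had 1 gene symbol, 1752 several and 7807 none here. Single-gene probe sets were averaged per gene (18377 genes). All 12 arrays were fitted together with limma 3.58.1 in R 4.3.3, with a mean per group (8 residual and 4.71 prior degrees of freedom), two-sided tests and Benjamini-Hochberg adjustment over all genes of a comparison; a gene was called at adjusted p under 0.05. "SE" is limma's moderated error. The fit was also run on simulated data of independent normal values with each gene's SD. Those data held no outlying array, so they cannot show how the fit handles one such as replicate 3 at 48 h. The 3 comparisons with control share their control arrays. Whether replicates were separate cultures is not stated beyond the word biological, so p-values measure the spread between these arrays.

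The 10 genes and the 13 lists were chosen with earlier results of these data known. From each list up to 3 called genes with the largest differences from control are named, and genes named beyond this rule are marked as such. For the 3 of the 10 genes with the widest range of group means, the 3 most correlated genes are named. The motifs were chosen after the data were seen, and the promoters shown were picked for their matches. Alternatives were leaving out each array, a replicate block, array weights, median-centred arrays, a robust prior, fits of 2 groups alone, adjusted p under 0.01 and at least a 1.5-fold change. Figures were drawn with Python 3.11.15 and matplotlib 3.10.9.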

Additional observations from a re-analysis of the deposited data

Results flagged for a closer look

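For 8 of the 10 genes the difference from control changed between 8 h and 48 h, by limma's test of these times against each other. That comparison called 29.7% of all genes. The 8 include CDH1, which the F test over the 4 groups did not call (adjusted p = 0.156). Each call below was made at adjusted p under 0.05 with n = 3 per group. At 24 h against 8 h TNC was lower (-0.83), and MCAM (1.05), EMP3 (0.51) and ACTA2 (0.31) were higher. At 48 h against 24 h FN1 (0.38), MCAM (0.71), EMP3 (0.74) and ACTA2 (0.35) were higher, and VIM (-0.22) and TAGLN (-0.40) were lower. At 48 h against 8 h FN1 (0.57), MCAM (1.76), EMP3 (1.26), ACTA2 (0.66) and CDH1 (0.15) were higher, and TNC (-1.10), VIM (-0.16) and TAGLN (-0.25) were lower. These comparisons called 19.4%, 10.1% and 29.7% of all genes. The calls of CDH1 (10 of 17 alternatives) and VIM (13) at 48 h against 8 h, and of FN1 (7) and VIM (4) at 48 h against 24 h, were lost under several alternatives.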

How the results depend on the processing

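The 10 genes' 60 differences (6 comparisons) were recomputed under 17 alternatives that keep the threshold; 44 kept their call in all of them, 16 changed it in at least 1, and 0 reversed. The stricter thresholds, adjusted p under 0.01 and a 1.5-fold minimum, were applied to counts: of the 10 genes the first left 4, 5 and 6 and the second 3, 5 and 5 at 8, 24 and 48 h against control. Called genes with each array left out in turn ranged over all genes from 3403 to 5161 at 8 h, 2102 to 3938 at 24 h and 3704 to 4749 at 48 h against control, 2726 to 4294 at 24 h against 8 h, 1103 (without replicate 3 at 24 h; 1104 without replicate 1 at 24 h) to 2149 at 48 h against 24 h (1860 with all arrays), 4726 to 5756 at 48 h against 8 h and 6261 to 7720 by the F test. Of the 10 genes, the same ranges were 4 to 5, 6 to 7, 6 to 8, 4 to 4, 4 to 7, 6 to 8 and 7 to 9. Array weights called 6079 genes at 24 h and 7455 at 48 h against control (3070 and 4649 without). They called 5901 at 48 h against 24 h, 8569 at 48 h against 8 h and 11190 by the F test. Each of these last 3 held 10 of the 10 genes (6, 8 and 8 without). At 48 h against 24 h TNC (adjusted p = 0.0264), EMP1 (0.00608), CDH1 (0.011) and ZEB1 (0.00563) were gained. At 48 h against 8 h EMP1 (adjusted p = 0.00355) and ZEB1 (0.000292) were gained, and by the F test CDH1 and ZEB1. Replicate 3 at 48 h had weight 0.199. Fitting 2 groups alone called 1022 genes at 48 h against 24 h. Adjusted p under 0.01 left 2920 genes at 8 h, 1770 at 24 h, 2252 at 24 h against 8 h and 819 at 48 h against 24 h. Adding a 1.5-fold minimum left 598, 442 and 688 genes at 8, 24 and 48 h against control, 436 at 24 h against 8 h (2 of the 10 genes), 136 at 48 h against 24 h (2) and 1033 at 48 h against 8 h (4). With the replicate number as a block, 4, 6 and 7 of the 10 genes were called at 8, 24 and 48 h (4718, 3390 and 5006 of all genes); TAGLN at 24 h (adjusted p = 0.0584) and VIM at 48 h against 8 h (adjusted p = 0.0608) were lost. Over the 4 groups, same-numbered pairs had correlations of deviations of both signs, and 11 of 18 were over 0.1 (-0.452 to 0.472, median 0.15, against -0.16 for other pairs). Deviations sum to 0 within a group, so these medians are not independent of each other. Between 48 h and control all 3 same-numbered pairs were over 0.1 (0.349, 0.117 and 0.458), and there the block changed no call among the 10 genes. The cause of these changes was not tested. A filter on dim probes and a choice among probe sets were not run, since levels were lost and each of the 10 genes had 1 probe set.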
